A study of Homo sapiens with 8 samples.

Results

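miR-296 is a human microRNA whose hairpin precursor gives rise to a pair of mature products, hsa-miR-296-5p from the 5′ arm and hsa-miR-296-3p from the 3′ arm. Both arms were among the 945 miRNAs listed in the deposited tables, so the 2 members described here are every listed product of this hairpin. They were chosen by a measured value of these data, the lower count of miR-296-5p in untreated cells with mutant p53. The difference between the untreated lines is therefore given as a description with no test.

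Small RNA was sequenced from H1299, a cell line from non-small cell lung carcinoma that has lost its own p53. H1299/EV cells carried an empty vector and came from another laboratory, and H1299/mutant p53R273H cells (R273H below) stably expressed the R273H mutant from a CMV-driven plasmid after G418 selection and picking of colonies. Each line was left untreated or was treated with etoposide, a drug that traps topoisomerase II on broken DNA, for 24 h, with 2 libraries in each of the 4 groups (EV untreated, EV etoposide, R273H untreated and R273H etoposide). The dose is 10 µM in one protocol of the labels and 10 mM in another. A difference between the lines cannot be told apart from their separate histories in culture. The study calls the replicates biological, and the labels do not say whether they came from separate cultures. The p-values therefore refer to the spread between libraries, which the fits drew in part or whole from all tested miRNAs.

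A miRNA hairpin is cut by Drosha in the nucleus and by Dicer in the cytoplasm into a short duplex. Argonaute keeps one strand, which pairs through its seed (bases 2 to 8) with messenger RNAs, and the other strand is usually degraded, so the reads of the arms of one hairpin need not move together. miR-296 lies in the imprinted GNAS region and is best known from blood vessel growth, where it lowers HGS, a protein that sorts growth factor receptors for degradation.

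The mature sequences are shown because their seeds and base composition set these arms apart, with the seed in capitals (RefSeq, table of build GRCh38.p14).
hsa-miR-296-5p: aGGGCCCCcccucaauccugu
hsa-miR-296-3p: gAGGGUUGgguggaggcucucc
No other of the 2370 mature miRNA names in the table shared either seed. The 5p arm is 21 bases long with 66.7% G or C, and the 3p arm is 22 bases long with 68.2%, against a median of 52.2% over all names. A run of 7 C bases crosses the end of the 5p seed. Runs of 1 base of that length or longer occurred in 7 names (0.295%), miR-296-5p among them.

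The order of the arms within the precursor is shown by the hairpin, in which the capitals mark the mature arms, 5p first.
MIR296 hairpin: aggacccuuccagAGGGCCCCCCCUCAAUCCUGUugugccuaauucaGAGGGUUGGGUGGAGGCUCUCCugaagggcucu
The hairpin matched GRCh37, the build of the study, at 1 place, chr20:57392670-57392749 on the minus strand. The 5p arm lies at chr20:57392716-57392736 and the 3p arm at chr20:57392681-57392702. Each arm also matched the genome at 1 place, so neither shares its sequence with a second locus. An exon of the lncRNA ENSG00000268649 spans the hairpin on the same strand, MIR298 lies 532 bp away and GNAS-AS1 1224 bp away, also on the minus strand, and GNAS, which encodes the alpha subunit of the stimulatory G protein, lies 22024 bp away on the plus strand. In the minimum free energy fold of the hairpin 18 of the 21 bases of the 5p arm and 19 of the 22 bases of the 3p arm were paired.

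The libraries held 234545 to 579367 reads on annotated features, of which 213007 to 536991 were on miRNAs. Between 30.6% and 44.5% of these were miR-21-5p. Libraries were scaled by the DESeq size factor of the authors within each table, or by a median-of-ratios size factor over all 8 libraries where lines were compared under etoposide. These factors did not follow the read totals. The etoposide libraries of EV had nearly equal factors over 8 libraries (0.829 and 0.821) at 234545 and 398728 reads, so the same reads stand at different heights when scaled to total miRNA reads. Scaling to total miRNA reads moved the median log2 difference of the tested miRNAs after etoposide from -0.03 to 0.38 in EV and from 0.02 to 0.71 in R273H, and member values on that scale are read against those medians.

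Both arms were low to intermediate in level. miR-296-5p had 64 and 20 reads in the EV untreated libraries, 24 and 4 in EV etoposide, 9 and 22 in R273H untreated, and 20 and 17 in R273H etoposide (replicate 1 first, here and below). It ranked between 126 and 257 by reads among the 427 to 579 miRNAs with a read in a library. miR-296-3p had 82 and 26 reads in EV untreated, 52 and 41 in EV etoposide, 25 and 30 in R273H untreated, and 55 and 70 in R273H etoposide. It ranked between 115 and 157. The 3p arm had more reads than the 5p arm in every library.

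The count behind each 5p value is small. The lowest, 4 reads in the second EV etoposide library, has an exact 95% Poisson interval of 1.09 to 10.2 reads, and the highest, 64 reads in the first EV untreated library, of 49.3 to 81.7 reads. All such intervals cover counting error only, since PCR copies of a molecule could not be told apart.

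On the scale of all 8 libraries, the normalized read count of miR-296-5p was 44.1 ± 10.8 (SD, n = 2) in EV untreated, 16.9 ± 17.03 in EV etoposide, 15.7 ± 8.22 in R273H untreated and 12.2 ± 2.15 in R273H etoposide. The EV untreated group thus stood highest, and the other groups did not differ beyond the spread of their libraries. For miR-296-3p the order was EV untreated at 56.9 ± 13.3, EV etoposide at 56.4 ± 9.05, R273H etoposide at 40.9 ± 4.42 and R273H untreated at 28.3 ± 1.36. The EV groups overlapped each other, and both lay above both R273H groups, which did not overlap each other.

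**Figure D1:**
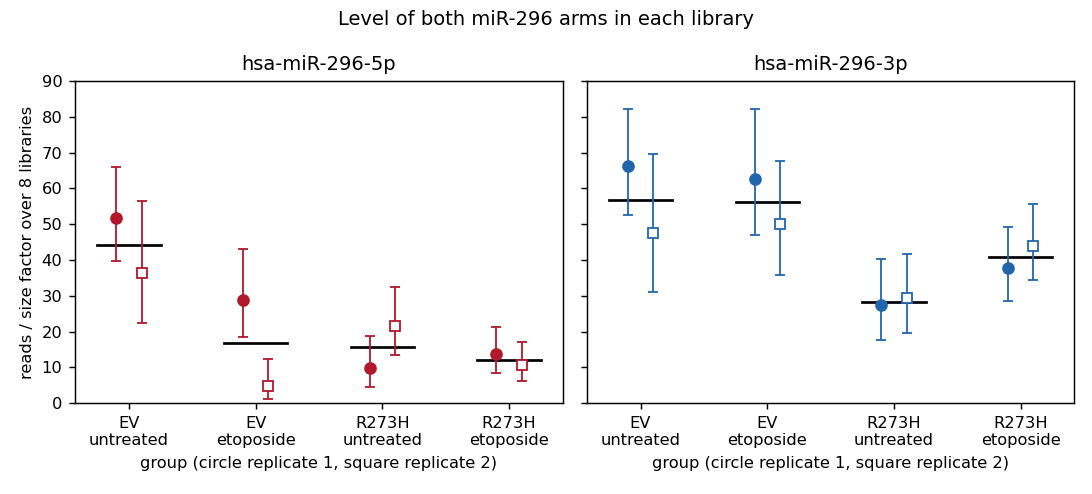
Normalized read count (reads divided by the size factor over 8 libraries) of hsa-miR-296-5p (left) and hsa-miR-296-3p (right) by group, with circles for replicate 1, squares for replicate 2, black lines for the group means and bars for exact 95% Poisson intervals of the reads. The 5p arm spans 28.96 to 4.87 within EV etoposide alone, while the 3p arm of the same libraries stays at 62.8 and 49.95.

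In untreated cells both arms stood lower in R273H than in EV. In bulk libraries a change in the share of cells that make a miRNA and a change in its level per cell cannot be told apart. In the table of untreated libraries miR-296-5p stood at 44.3 and 31.9 normalized reads in EV and at 9.23 and 19.6 in R273H. The EV libraries were both higher than the R273H libraries, and the ratio of the means was 2.65 (EV over R273H). miR-296-3p stood at 56.8 and 41.4 in EV and at 25.7 and 26.7 in R273H, again without overlap, with a ratio of 1.88. The fitted log2 differences (R273H minus EV) on log2(normalized count + 1), a scale that understates changes of low counts, were -1.41 for 5p and -0.87 for 3p. Among the 304 miRNAs tested, 26.6% were lower in R273H with no overlap of the libraries, and 20.4% were called in either direction by limma at an adjusted p-value under 0.05, so a lower value without overlap was common in this comparison.

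Over the alternatives the untreated log2 difference of the 5p arm ran from -1.92 to -0.91 and that of the 3p arm from -1.12 to -0.64, which describes the libraries used in the choice and is no support for a direction. The second R273H library held 22 reads of the 5p arm against 9 in the first, at size factors over 8 libraries of 1.02 and 0.913. The 3p arm did not show this gap between the same libraries (25 and 30 reads).

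The etoposide libraries gave a second comparison of the lines in libraries other than the untreated ones, although their results were also known when the members were chosen. On the scale of all 8 libraries miR-296-5p stood at 29.0 and 4.87 in EV and at 13.7 and 10.7 in R273H. Both R273H values lay between the EV values. The fitted log2 difference (R273H minus EV) was -0.02 with an SE of 0.59 (95% confidence interval -1.24 to 1.20, adjusted p-value 0.994, limma over 8 libraries). The interval allows a level up to 2.30-fold higher or 2.36-fold lower in R273H. On recovered reads the log2 difference was -0.52 with edgeR and -0.47 with DESeq2, and the ratio of the means was 1.39 (EV over R273H). The value near 0 thus belongs to the mean of logs in the main fit.

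The value of the 5p arm rested on which EV etoposide library was kept. Without the first EV etoposide library the log2 difference was 1.16, and without the second it was -1.19, with adjusted p-values of 0.144 and 0.143. Over all 19 alternatives the adjusted p-value ranged from 0.143 to 1.

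miR-296-3p stood under etoposide at 62.8 and 49.95 in EV and at 37.7 and 43.99 in R273H. Both R273H libraries were lower than both EV libraries, as was the case for 26.1% of the 322 miRNAs tested. The fitted log2 difference was -0.45 with an SE of 0.38 (95% confidence interval -1.23 to 0.33, adjusted p-value 0.446), which did not pass the threshold. It stayed negative under every alternative, between -0.61 and -0.17. Neither arm was among the 17.7% of tested miRNAs that limma called between the lines under etoposide.

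In EV cells the 5p arm stood lower after etoposide without passing the test, and whether the arms differed in response was not tested. In the EV table miR-296-5p went from 41.3 and 30.3 normalized reads in untreated cells to 22.9 and 3.94 after etoposide. Both treated libraries were lower than both untreated ones, which held for 15.5% of the miRNAs tested. The fitted log2 difference was -1.74 with an SE of 0.54 (95% confidence interval -2.80 to -0.68), which put it at rank 9 by size among the miRNAs tested. In this comparison limma took the spread wholly from the trend over all tested miRNAs (592 degrees of freedom). The SD of the 5p arm itself within groups was 1.16 on the log2 scale, so its own libraries would give a wider interval. Its unadjusted p-value of 0.00129 became an adjusted p-value of 0.127 in limma, so it was not called.

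In that comparison 0.676% of the miRNAs were called, namely miR-16-2-3p and miR-29b-3p, both lower after etoposide (named after their values were seen). The 5p response shares its untreated EV libraries with the comparison through which the 5p arm was chosen, and those libraries were the highest of all 8. Without the second EV etoposide library, the one with 4 reads, the log2 difference was -0.61, and without the first it was -2.88. With libraries scaled to total miRNA reads it was -1.32, and the adjusted p-value over the 14 alternatives ran from 0.103 to 0.996.

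miR-296-3p stood at 52.9 and 39.4 in the untreated and at 49.6 and 40.3 in the etoposide libraries of EV. The groups overlapped, and the fitted log2 difference was -0.03 with an SE of 0.44 (95% confidence interval -0.89 to 0.83, adjusted p-value 0.998, limma). Scaled to total miRNA reads the value was 0.39, close to the median of all miRNAs on that scale.

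In R273H cells the 5p arm went from 11.97 and 25.98 normalized reads in the untreated to 16.5 and 12.6 in the etoposide libraries. Both treated values lay within the range of the untreated ones. The untreated R273H libraries were those whose low 5p count led to the choice, so this response is not independent of it. The fitted log2 difference was -0.28 with an SE of 0.42 (95% confidence interval -1.19 to 0.64, adjusted p-value 0.923, limma), and it turned to 0.38 with libraries scaled to total miRNA reads and to 0.25 without the second R273H untreated library.

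miR-296-3p went from 33.2 and 35.4 normalized reads to 45.3 and 52.0 in R273H cells. Both treated libraries were higher than both untreated ones, as for 20.5% of the 341 miRNAs tested. The fitted log2 difference was 0.49 with an SE of 0.31 (95% confidence interval -0.19 to 1.16, adjusted p-value 0.635, limma), and it lay between 0.37 and 1.18 over the alternatives. limma called 0% of the miRNAs in this comparison, against 31 with an unadjusted p-value under 0.05, 0 called by edgeR and 1 by DESeq2.

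Whether the lines differed in their response was fitted over all 8 libraries. This difference contains the untreated difference between the lines by which the 5p arm was chosen, so its 5p value is not independent of that choice. The log2 response of the 5p arm in R273H minus that in EV was 1.49 with an SE of 0.84 (95% confidence interval -0.23 to 3.22, adjusted p-value 0.993, limma). It was 2.67 without the first EV etoposide library and 0.32 without the second. For the 3p arm the difference was 0.51 with an SE of 0.53 (95% confidence interval -0.59 to 1.62, adjusted p-value 0.993). limma called 0% of the 322 miRNAs, with 11 at an unadjusted p-value under 0.05, and edgeR and DESeq2 called 0 each.

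**Figure D2:**
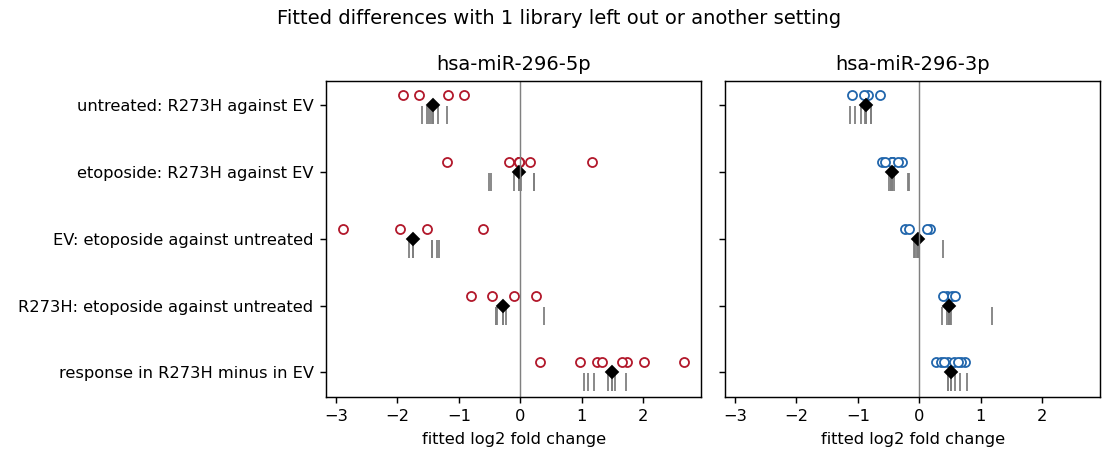
The same fitted log2 fold changes as reported (black diamonds), with 1 library left out (open circles) and under other settings (grey ticks) for miR-296-5p (left) and miR-296-3p (right). The open circles of the 5p arm spread from -1.19 to 1.16 for R273H against EV under etoposide, and those of the 3p arm stay below 0.

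The arms can be set against each other within a library, where the size factor cancels. The 5p arm made up 43.8% of the reads of both arms in the first EV untreated library (64 of 146 reads, exact 95% confidence interval 35.6 to 52.3) and 43.5% in the second (20 of 46 reads, 28.9 to 58.9). It made up 31.6% (24 of 76 reads, 21.4 to 43.3) and 8.89% (4 of 45 reads, 2.48 to 21.2) in EV etoposide. In R273H it made up 26.5% (9 of 34 reads, 12.9 to 44.4) and 42.3% (22 of 52 reads, 28.7 to 56.8) in the untreated libraries and 26.7% (20 of 75 reads, 17.1 to 38.1) and 19.5% (17 of 87 reads, 11.8 to 29.4) after etoposide. Both EV etoposide libraries had a lower 5p share than both EV untreated ones, which were among the libraries used to choose the 5p arm. How many other hairpins had shares without overlap was not counted. For the level of single miRNAs in EV, 15.5% were lower after etoposide without overlap. In R273H the first etoposide library and the first untreated library had almost the same share, so the groups overlapped.

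By group the 5p share was 43.7% ± 0.253 (SD, n = 2) in EV untreated, 20.2% ± 16.0 in EV etoposide, 34.4% ± 11.2 in R273H untreated and 23.1% ± 5.04 in R273H etoposide. No test is given for the share, since a two-sided exact permutation test of 2 against 2 libraries cannot give a p-value under 0.333. The EV etoposide libraries differed from each other by more than any other pair of replicates, and the interval of the second, at 8.89%, ends just short of the 21.4% at which that of the first begins.

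The reads of both arms together were less spread than those of the 5p arm. On the scale of 8 libraries they came to 118 and 84.0 in EV untreated, 91.7 and 54.8 in EV etoposide, 37.2 and 50.8 in R273H untreated, and 51.5 and 54.7 in R273H etoposide. Every EV library was above every R273H library for this sum, the lowest EV value of 54.8 standing next to the highest R273H value of 54.7. The untreated libraries among them were used to choose the 5p arm. How many other hairpins were split in this way was not counted. Of single miRNAs, 26.6% untreated and 26.1% under etoposide were lower in R273H without overlap, so the order of this sum is a description. Scaled to a total of 1000000 miRNA reads (RPM) the order was different, with 249 RPM in the second R273H etoposide library against 124 RPM in the second EV etoposide library.

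Hairpins with both arms listed, at least 10 reads of both arms together in each library and at least 24 reads of each arm in all, numbered 79. The log2 ratio of 5p to 3p reads (0.5 added to each) of miR-296 changed by -1.79 after etoposide in EV, against a median of 0.00 over these hairpins, and 5 of the 79, miR-296 included, changed at least as far in either direction. In R273H it changed by -0.79, against a median of -0.15, and 11 of the 79 changed at least as far. Between the EV etoposide libraries the ratio of miR-296 differed by 2.11 on the log2 scale, against a median gap of 0.98, and 8 of the 79 hairpins had a gap at least as wide. The shift in EV was smaller than this gap between replicates. The untreated libraries, from which these changes start, were those used to choose the 5p arm. The place of miR-296 among the hairpins is therefore a description and no support. Of the 79 hairpins 25 had a lower ratio after etoposide in both lines, miR-296 among them.

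The miRNAs nearest to the 5p arm in pattern were taken from 227 others with a mean of at least 10 on the scale of 8 libraries, by the root mean square difference of centred log2 values over the 8 libraries. In order they were miR-193a-5p (0.46), miR-99a-5p (0.67), miR-940 (0.70), miR-27a-5p (0.78) and miR-320a (0.81), against a median of 1.08 over all 227. The partner arm miR-296-3p came at rank 23 with 0.89. Ranked from the 3p arm, the 5p arm came at 186 of 227, above the median of 0.63 on that side. The place of the partner thus depended on the arm from which it was ranked. miR-193a-5p had 218 and 68 reads in EV untreated, 105 and 34 in EV etoposide, 56 and 112 in R273H untreated, and 104 and 162 in R273H etoposide. Like the 5p arm it was lowest among the EV libraries, per size factor, in the second EV etoposide library (41.4 normalized reads) and lower in the first than in the second R273H untreated library (61.3 and 109). miR-940 was also lowest among the EV libraries there, at 12.2 normalized reads against 29.9 to 38.6 in the others. These miRNAs were picked by likeness over the same 8 libraries, so a shared low value in the second EV etoposide library follows in part from that choice. Whether a property of that library is part of the low 5p value was not tested.

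The base composition of the arms was set beside that of other miRNAs, in lists made after values were seen. The listed miRNAs with at least 60% G or C, the arms left out, had a median log2 difference of -0.33 in untreated R273H against EV (40 miRNAs), where the median of all 304 tested was 0.10. Under etoposide the median of 40 such miRNAs was -0.03, against 0.11 over all 322. After etoposide in R273H the median of 43 such miRNAs was 0.37, against 0.02 over all 341. After etoposide in EV the median of 40 such miRNAs was 0.05, against -0.03 over all tested, with 21 above 0 and 19 below. Listed miRNAs with a run of 5 or more of 1 base, the arms left out, were also compared. Between the lines 11 were tested, with medians of -0.30 untreated (7 below 0, 4 above) and -1.04 under etoposide (6 below, 5 above). After etoposide the median was -0.18 in EV (10 miRNAs) and 0.02 in R273H (14 miRNAs). Whether base composition or such a run has a part in the values of the miR-296 arms was not tested.

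miR-298, the neighbor of miR-296 in the GNAS region, had 1 read in all, in the second R273H etoposide library. In the deepest library the count of 0, taken as up to 3 reads, allows up to 5.59 RPM, so a change of miR-298 was not detectable at this depth.

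The other listed miRNAs of chromosome 20 numbered 20, of which 5 passed the filter on low counts between the lines. Between the lines limma called 20.4% of all tested miRNAs in untreated cells and 17.7% under etoposide. Of the 5 it called 1 higher and 1 lower in R273H in untreated cells and again under etoposide. The medians over the 5 were -0.24 and -0.20, against 0.10 and 0.11 over all tested miRNAs. The higher was miR-103a-2-5p, with 0 to 3 reads in the EV libraries and 10 to 18 in R273H. The lower was miR-3192-3p, with 14 to 20 reads in EV and 0 in each R273H library. Each of these miRNAs passed the filter on low counts only through the line where it was high, so the calls are descriptions and lend no support. miR-103a-3p, which chromosome 20 shares with a second gene, had log2 differences of 0.12 and -0.20. After etoposide limma called 0 of the 4 tested in each line, with an unadjusted p-value under 0.05 for 0 in EV and for 1 in R273H. Over all tested miRNAs it called 0.676% in EV and 0% in R273H.

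Other imprinted loci gave few reads in these cells. Of 71 miRNAs of the DLK1-DIO3, H19, IGF2, MEST and GNAS loci 26 were listed, and 1 was tested in untreated cells between the lines, 2 between the lines under etoposide, 3 after etoposide in EV and 1 in R273H. miR-376c-3p of DLK1-DIO3 was called lower in R273H under etoposide, where 17.7% of all tested miRNAs were called. It had 10 and 15 reads in the EV libraries and 0 in each of the R273H ones. It passed the filter on low counts only through EV, so its call is a description. miR-335-5p of MEST had 15, 11, 19 and 20 reads in the EV libraries and 5, 5, 14 and 13 in R273H, with log2 differences of -1.33 untreated (adjusted p-value 0.0932, limma) and -1.32 under etoposide (adjusted p-value 0.0685). Neither arm of miR-296 nor miR-335-5p was called under etoposide.

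Of 14 other miRNAs known from blood vessel growth 13 were listed and tested. Between untreated lines limma called 4 higher (miR-16-5p, miR-17-5p, miR-18a-5p and miR-132-3p) and 3 lower in R273H (miR-126-3p, miR-130a-3p and miR-378a-3p), with a median log2 difference of 0.14 against 0.10 over all miRNAs, where 20.4% of all tested miRNAs were called. With the first or the second R273H untreated library left out limma called 0 miRNAs in this comparison. Under etoposide it called 2 higher (miR-17-5p and miR-18a-5p) and the same 3 lower, with a median of -0.14 against 0.11, where 17.7% of all tested miRNAs were called. miR-18a-5p of the miR-17-92 cluster had a log2 difference of 1.64 ± 0.34 (SE) untreated and 1.61 ± 0.39 under etoposide, with adjusted p-values of 0.00287 and 0.00794 in limma. miR-222-3p had values of -0.65 and -0.90 and was not called. After etoposide limma called 0 of the 13 in each line, with an unadjusted p-value under 0.05 for 1 in EV and 0 in R273H. Over all tested miRNAs it called 0.676% in EV and 0% in R273H.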

How the data were processed

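The authors trimmed the Ion PGM reads, selected them by length, aligned them with SHRiMP to miRBase and with Novoalign to GRCh37 (hg19), and counted them per feature. The deposited signal is such a count divided by a DESeq size factor, in 3 tables normalized separately. All values (100% in each library, tolerance 0.1 reads) were whole multiples of 1 read, so reads were recovered. Deposited comparison tables hold the authors' own fold changes and p-values and were not used.

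limma 3.58.1 (R 4.3.3, with trend) was fitted to log2(normalized count + 1) of miRNAs with a mean of at least 3, with Benjamini-Hochberg adjustment. The line difference under etoposide and the difference of responses came from 1 fit of 4 groups over 8 libraries. edgeR 4.0.16 and DESeq2 1.42.0 on recovered reads were alternatives, and the scripts were tested on simulated data. Sequences and positions came from RefSeq, GRCh37 and GENCODE 44, and the fold from RNAfold. Python, scipy and exact intervals (Poisson, Clopper-Pearson) served the rest. Alternatives were other pseudocounts, filters and scalings, a replicate block and each library left out. Replicate libraries differed by more than sampling noise (chi-square per degree of freedom 32.3 to 70.4 within groups). The members, lists and tests were chosen with earlier results of these data known. Named miRNAs are both arms, miR-298, those sharing a seed, the 5 nearest patterns, and up to 4 members of each list by mean reads, unless said otherwise.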

Additional observations from a re-analysis of the deposited data

How the results depend on the processing

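Neither arm crossed the threshold of an adjusted p-value under 0.05 in any tested comparison under any alternative. Signs turned as follows. For the 5p arm under etoposide, R273H against EV, the log2 difference was 0.00345 with a pseudocount of 0.5, 0.22 with equal upper quartiles, 0.23 scaled to total miRNA reads, and -1.19 to 1.16 with 1 library left out. For the 5p arm after etoposide in R273H it was 0.38 scaled to total miRNA reads and -0.81 to 0.25 with 1 library left out. For the 3p arm after etoposide in EV it was 0.39 scaled to total miRNA reads and -0.24 to 0.18 with 1 library left out. The untreated difference of the 3p arm kept its sign and moved to -1.12 with edgeR. The median log2 difference of all tested miRNAs moved with the scaling as well. Between the lines under etoposide it went from 0.11 to 0.35 with equal upper quartiles and to 0.37 scaled to total miRNA reads. After etoposide it was 0.71 in R273H and 0.38 in EV when scaled to total miRNA reads. The cause of the shifts of the arms was not tested.

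Counts of called miRNAs moved more. After etoposide in EV the count of 2, both lower, became 1 without the trend (1 higher, 0 lower), 1 with edgeR and 1 with DESeq2 (each 0 higher, 1 lower), to 0 scaled to total miRNA reads, and to 0 to 1 with 1 library left out. In R273H the count of 0 became 2 with a mean of at least 10, 1 with DESeq2, 2 scaled to total miRNA reads, and 0 to 9 with 1 library left out, 9 without the first etoposide library. Between untreated lines 62 (33 higher, 29 lower in R273H) became 39 without the trend, 34 with DESeq2 (11 higher, 23 lower), 38 scaled to total miRNA reads, and 0 to 51 with 1 library left out, 0 without either R273H library. Under etoposide 57 (23 higher, 34 lower) became 9 with no filter, 36 without the trend, 26 scaled to total miRNA reads (16 higher, 10 lower), and 17 to 73 with 1 library left out. With equal upper quartiles the split was 39 higher and 19 lower. The difference of responses gave 1 scaled to total miRNA reads, an alternative chosen after seeing the data.

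The labels do not say whether replicate numbers pair the samples, and the main fits treated them as unpaired. The correlations of deviations between groups ran from -0.30 to 0.16, which with 2 libraries in each group cannot settle this. With the replicate number as a block the untreated comparison gave 0 called miRNAs. The 5p arm after etoposide in EV kept its log2 difference of -1.74 (adjusted p-value 0.322, limma). No tested value of either arm changed its side of the threshold. The 5p arm had 4 to 64 reads in a library, which limits the precision of each value.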
